A study of Mus musculus with 16 samples.

Results

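The genes of the mitochondrial ribosomal proteins were taken as those whose symbol on the array begins with Mrpl or Mrps followed by a number, without pseudogenes. Of 78 such genes in the mouse reference, 71 had a probe set that carried no other gene's symbol, and these 71 of the 22180 genes tested are described here. Each gene was read from its probe set with the highest mean. The other 7 (Mrpl30, Mrpl33, Mrpl41, Mrpl43, Mrpl44, Mrpl53 and Mrps6) lay only on probe sets shared with other symbols and were not used. Of the 71 genes, 45 encode proteins of the large subunit and 25 of the small subunit. The remaining one, Mrps36, carries the family name, but its product is now known as a component of the 2-oxoglutarate dehydrogenase complex. The dim level used below, 4.93 on the log2 scale, is the level of genes that these cells are not thought to use. A gene counts as above it where its highest treatment group mean is. All 71 genes were tested, and 70 of them were above the dim level. Mrps36 was the exception.

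The RNA came from dendritic cells grown from mouse bone marrow for 10 days with 20 ng/ml of the growth factor GM-CSF, a culture in which cells with macrophage features are also known to arise. All arrays carried cells of male animals labelled C57/B6, and the labels used here give no age. The groups were IMQ with PA, IMQ alone, PA alone and mock, each for 24 h and each with 4 arrays numbered as biological replicates. IMQ is imiquimod, an agonist of the endosomal receptor TLR7, given at 3 uM in the study's design text and at 3 ug/ml in its treatment protocol. PA is palmitic acid, a saturated fatty acid, given at 0.5 mM on albumin at a molar ratio of 6:1. The labels do not say whether mock or IMQ cells received albumin alone, nor which cultures or animals the replicates came from, so p-values here measure the spread between these arrays. The crossing of both agents asks what each does alone and whether the fatty acid changes the response to the agonist.

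The mitochondrial ribosome sits at the inner membrane of the mitochondrion and makes the small set of respiratory chain and ATP synthase proteins that mitochondrial DNA encodes. Its rRNAs are also mitochondrial products, whereas all of its proteins are encoded in the nucleus, made in the cytosol and imported. Many of them descend from bacterial ribosomal proteins, and others were gained in the mitochondrial lineage. Dendritic cells that respond to Toll-like receptor ligands are known to turn from respiration towards glycolysis. The array measures mRNA, not ribosomes or protein.

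Promoter windows were available for 62 of the 71 genes, as 68 windows from 250 bases before to 50 bases after a start site (RefSeq, build GRCm38.p6). They are shown because the genes of mitochondrial ribosomal proteins are textbook targets of the transcription factors NRF1, GABP (an ETS factor) and YY1. The letters searched on both strands were GCATGCGC for NRF1, ACTTCCGG for ETS factors, ATGGCGGC for YY1 and CACGTG for the E-box. The NRF1 letters stood in windows of 7 of the 62 genes (11.3%), against 3.05% of all 27025 genes in the table. The ETS letters stood in 10 (16.1%), against 4.31% of all genes. The YY1 letters stood in 11 (17.7%), against 2.6%, and the E-box in 5 (8.06%), against 8.09%. The windows of the family had a median GC content of 58.5%, against 52.7% for all windows. The part of GC content in these shares was not tested.

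Windows of 4 genes described below follow, 5′ to 3′ on the gene's own strand, with the letters of a motif in capitals: NRF1 in Mrpl39 (chr16:84735195-84735494, minus strand) and Mrpl32 (chr13:14612988-14613287, minus strand), ETS in Mrpl52 (chr14:54426659-54426958, plus strand), and no motif searched in Mrpl34 (chr8:71464676-71464975, plus strand).
Mrpl39: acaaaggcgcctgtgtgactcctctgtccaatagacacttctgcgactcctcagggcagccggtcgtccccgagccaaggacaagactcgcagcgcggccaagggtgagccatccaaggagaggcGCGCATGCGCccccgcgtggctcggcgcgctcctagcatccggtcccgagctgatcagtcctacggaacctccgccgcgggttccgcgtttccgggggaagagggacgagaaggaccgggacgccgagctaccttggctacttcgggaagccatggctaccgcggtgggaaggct
Mrpl32: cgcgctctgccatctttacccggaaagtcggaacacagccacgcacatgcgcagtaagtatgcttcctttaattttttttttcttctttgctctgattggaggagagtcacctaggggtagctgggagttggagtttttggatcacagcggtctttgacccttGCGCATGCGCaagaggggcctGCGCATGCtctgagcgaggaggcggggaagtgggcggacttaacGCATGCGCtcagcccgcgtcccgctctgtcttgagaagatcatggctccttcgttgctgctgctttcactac
Mrpl52: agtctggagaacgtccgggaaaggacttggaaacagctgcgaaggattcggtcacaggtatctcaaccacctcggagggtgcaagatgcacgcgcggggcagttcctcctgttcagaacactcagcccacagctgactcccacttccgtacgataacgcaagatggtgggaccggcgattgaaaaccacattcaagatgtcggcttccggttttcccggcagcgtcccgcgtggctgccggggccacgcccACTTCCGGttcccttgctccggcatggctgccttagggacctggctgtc
Mrpl34: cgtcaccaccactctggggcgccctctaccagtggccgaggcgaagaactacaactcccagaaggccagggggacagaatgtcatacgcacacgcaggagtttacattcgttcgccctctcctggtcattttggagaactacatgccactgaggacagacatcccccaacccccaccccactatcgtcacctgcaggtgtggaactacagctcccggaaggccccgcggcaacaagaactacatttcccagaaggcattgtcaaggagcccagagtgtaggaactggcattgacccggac
The NRF1 letters in Mrpl39 began at position -125 from the start site, where the run GCGCATGCGC holds them on both strands. Mrpl32 held them at positions -87, -66 and -22, the first again on both strands. The ETS letters of Mrpl52 began at position 1 on the same count. Among the genes higher with IMQ alone (below), 4 of the 14 with a window held the NRF1 letters (Mrpl17, Mrpl32, Mrpl39 and Mrps18b), against 0 of 15 among the lower ones and 3 of 33 among those not called. These counts are a description of few genes, with no test, and the names follow from the search. Of the 4 genes, Mrpl17, Mrpl32 and Mrps18b lost their call when mock and PA arrays high in Il6 (below) were left out.

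Values are log2 signals normalised by the authors. They were tested with limma over all genes, and a gene is called where the p adjusted over the 22180 genes is under 0.05. Of the markers listed for dendritic cells, all 6 measured were above the dim level, as were all 4 measured for macrophages. Of the neutrophil markers 4 of 7 were above it, of the lymphocyte markers 1 of 4 (Cd2), and of the mast cell and basophil markers 0 of 5. The mean of the macrophage markers lay at 9.50 to 9.57 with IMQ and PA, at 9.31 to 9.39 with IMQ, at 10.4 to 10.5 with PA and at 10.4 to 10.5 in mock cells. The mean of the dendritic cell markers lay at 9.31 to 9.36 with IMQ and PA, at 9.34 to 9.41 with IMQ, at 9.62 to 9.72 with PA and at 9.74 to 9.83 in mock cells. These means hold markers that went opposite ways. Adgre1 averaged 11.6 with IMQ and 10.1 in mock cells, whereas Mrc1 averaged 6.56 with IMQ and 10.2 in mock cells, and Mertk 7.65 with IMQ and 9.73 in mock cells. Ccr7 averaged 11.2 with IMQ and 10.2 in mock cells, whereas Itgax averaged 9.39 with IMQ and 11.1 in mock cells. In such bulk RNA, fewer cells of a type and less RNA per cell cannot be told apart, and the part of cell make-up in the results below was not tested. Arrays without IMQ stood apart in Il6, a cytokine gene induced by TLR7 agonists. It read 7.43 and 8.22 on PA replicates 3 and 4 and 7.57, 7.90 and 7.71 on mock replicates 1 to 3, but 4.12 and 4.0 on PA replicates 1 and 2 and 4.32 on mock replicate 4. The 8 arrays with IMQ read between 11.86 and 12.27. The counts over the whole family that rest on the mock or PA arrays are therefore also given without those 5 arrays. In that fit 1 mock and 2 PA arrays remain, and the lone array is assumed to vary like the other groups. For genes of the family named in such a comparison it is said where the call was lost. The median over the 71 genes lay between 7.10 and 7.28 on every array.

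With IMQ alone, the mitochondrial ribosomal protein genes moved in both directions by similar numbers and by modest amounts. Against mock, 16 of the 71 were higher and 17 lower, 46.5% in all. The background was 34.8% of all genes (17.0% higher and 17.9% lower) and 52.1% of the 13539 genes above the dim level, so the share called lay between these backgrounds. The changes ran between -0.60 for Mrpl34 and 0.78 for Mrpl39, no gene of the family was called with a change of 1 log2 unit or more (5.13% of all genes were), and 5 (7.04%) were called with a change of 1.5-fold or more, against 11.4% of all genes. The median change was 0.03 over the family and 0.01 over all genes. The 4 IMQ arrays did not overlap the 4 mock arrays for 30 of the 33 genes called (90.9%), and the same held for 89.6% of all genes called. Over the genes tested, 42.3% of the family and 31.2% of all genes were called without overlap. The exceptions were Mrpl28, Mrpl32 and Mrps18a. Without the 5 arrays high in Il6, all 33 genes kept their direction, and 18 passed the test, 7 higher and 11 lower, where 23.6% of all genes passed.

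**Figure D1:**
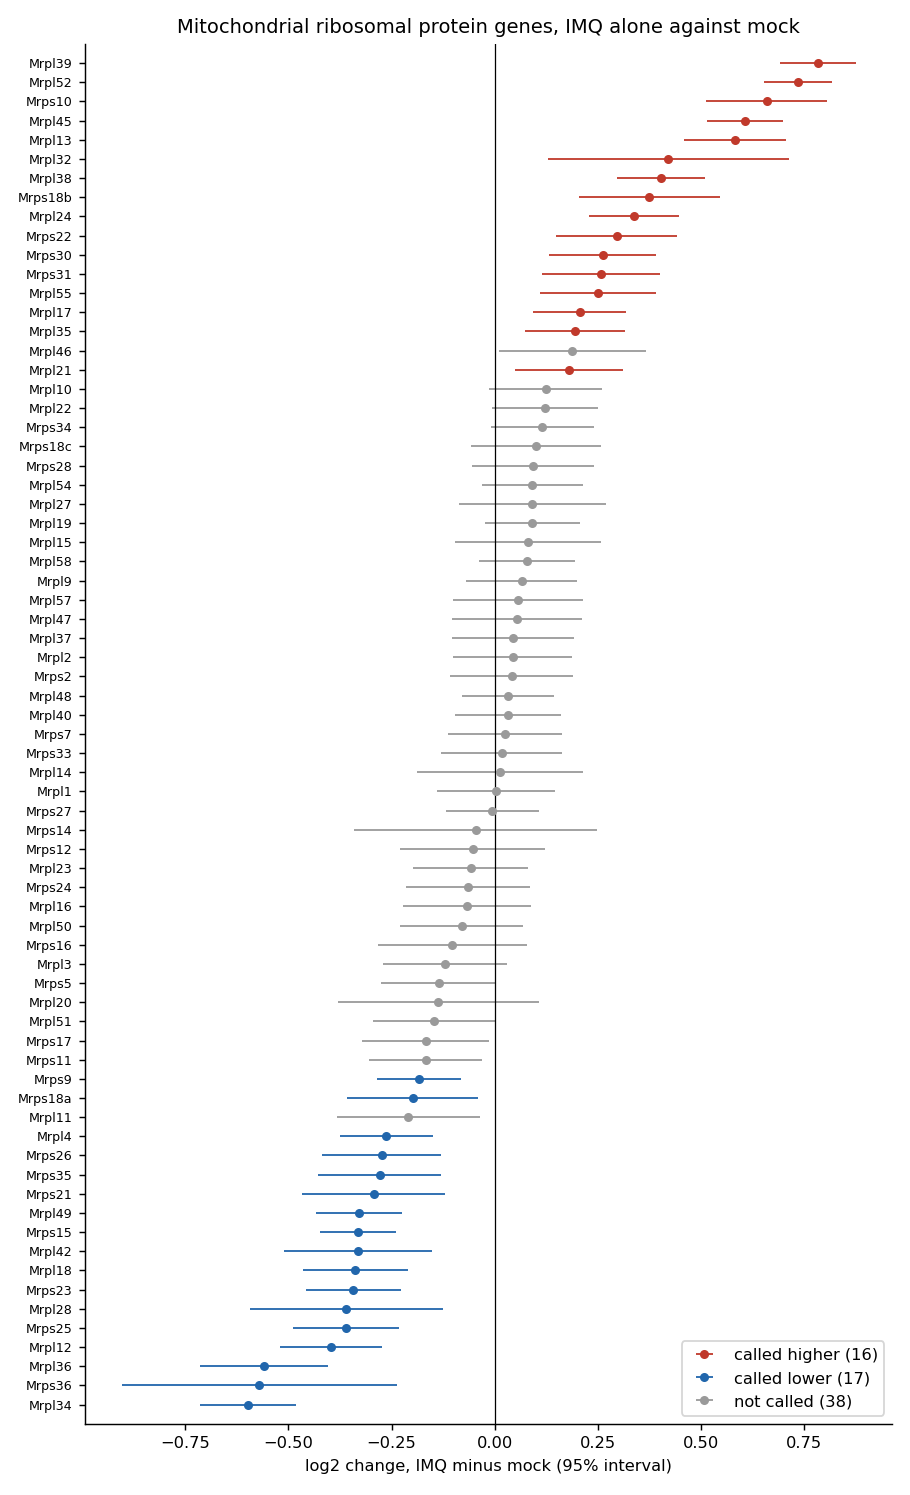
Log2 change of each of the 71 mitochondrial ribosomal protein genes with IMQ alone against mock (points) with its 95% interval (bars), ordered by size. The genes called higher (16) and lower (17) lie at both ends, from 0.78 for Mrpl39 to -0.60 for Mrpl34, with 38 genes not called between them.

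In the large subunit 12 of 45 genes were higher with IMQ (Mrpl13, Mrpl17, Mrpl21, Mrpl24, Mrpl32, Mrpl35, Mrpl38, Mrpl39, Mrpl45, Mrpl52, Mrpl55 and Mrps30). The 9 lower ones were Mrpl4, Mrpl12, Mrpl18, Mrpl28, Mrpl34, Mrpl36, Mrpl42, Mrpl49 and Mrps18a. Of the higher ones, Mrpl17, Mrpl21, Mrpl32, Mrpl35, Mrpl55 and Mrps30 lost their call without the arrays high in Il6. Of the lower ones, Mrpl18 and Mrpl28 did. The largest rise was that of Mrpl39, a protein with no bacterial counterpart. Its values were 9.23, 9.14, 9.22 and 9.20 with IMQ, against 8.36, 8.39, 8.48 and 8.42 in mock cells. The groups were far apart compared with their spread. The change was 0.78 ± 0.04 (SE, n = 4 each), 1.72-fold, with an adjusted p of 3.48e-10. Without the arrays high in Il6 it was 0.77, and those of Mrpl52, Mrpl45 and Mrpl13 below were 0.70, 0.69 and 0.51, all called.

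Mrpl52, another protein gained in mitochondria, read 9.73, 9.73, 9.78 and 9.74 with IMQ and 8.95, 9.01, 9.03 and 9.04 in mock cells. All IMQ arrays were above all mock arrays, by 0.74 ± 0.04 or 1.67-fold (SE, n = 4 each, adjusted p = 2.25e-10). Mrpl45 lies at the exit of the tunnel for the new protein chain and helps to hold the ribosome at the inner membrane. It read 8.68, 8.65, 8.65 and 8.68 with IMQ, against 8.10, 8.11, 8.06 and 7.97 in mock cells. The difference was 0.61 ± 0.04 (SE, adjusted p = 8.56e-09), with no overlap.

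Mrpl13, the counterpart of bacterial L13, read 7.70, 7.63, 7.74 and 7.73 with IMQ, against 7.16, 6.95, 7.17 and 7.19 in mock cells, where replicate 2 was low. The groups did not overlap, and the change was 0.58 ± 0.06 (SE, adjusted p = 5.37e-07). Mrpl38 followed with 8.34, 8.28, 8.35 and 8.25 with IMQ against 7.88, 7.85, 7.97 and 7.92 in mock cells, a change of 0.40 ± 0.05 (SE, adjusted p = 6.08e-06). Smaller rises that passed the test were 0.34 for Mrpl24 and 0.26 for Mrps30, a large subunit protein despite its name. For Mrpl32, a protein that is cut to its mature form inside mitochondria before it joins the ribosome, the arrays overlapped. It read 6.94, 6.79, 7.16 and 6.62 with IMQ and 6.52, 6.05, 6.57 and 6.69 in mock cells, a change of 0.42 ± 0.14 (SE, adjusted p = 0.0251). Without the arrays high in Il6, Mrpl32 was 0.19 higher (adjusted p = 0.597) and Mrps30 0.23 higher (adjusted p = 0.0978), both outside the threshold, while Mrpl24 passed.

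Mrpl34, the counterpart of the small bacterial protein L34, fell most. Its values were 7.78, 7.62, 7.80 and 7.70 with IMQ, against 8.20, 8.27, 8.41 and 8.41 in mock cells. Each IMQ array was below each mock array, with a change of -0.60 ± 0.05 (SE, n = 4 each) and an adjusted p of 1.88e-07. Mrpl36, counterpart of bacterial L36, read 5.92, 5.93, 5.92 and 5.75 with IMQ and 6.46, 6.28, 6.52 and 6.49 in mock cells. The change was -0.56 ± 0.07 (SE, adjusted p = 1.13e-05), again with no overlap.

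Mrpl12 forms the flexible stalk that recruits translation factors to the large subunit. It read 6.41, 6.31, 6.35 and 6.31 with IMQ, against 6.77, 6.64, 6.71 and 6.86 in mock cells. The groups did not overlap, and the change was -0.40 ± 0.06 (SE, adjusted p = 3.56e-05). A second, dimmer probe set of Mrpl12 changed by -0.04, and the mean of both by -0.22 (adjusted p = 0.00799). Its neighbour at the base of the stalk, Mrpl11, read 6.55, 6.35, 6.71 and 6.45 with IMQ and 6.78, 6.70, 6.66 and 6.77 in mock cells. These arrays overlapped, and its change of -0.21 missed the threshold (adjusted p = 0.0583). With the arrays high in Il6 left out, the changes of Mrpl34, Mrpl36 and Mrpl12 were -0.68, -0.61 and -0.51, and all passed the test.

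In the small subunit 4 of 25 genes were higher with IMQ (Mrps10, Mrps18b, Mrps22 and Mrps31) and 7 lower (Mrps9, Mrps15, Mrps21, Mrps23, Mrps25, Mrps26 and Mrps35). Of the higher ones, Mrps18b, Mrps22 and Mrps31 lost their call without the arrays high in Il6. Of the lower ones, Mrps9, Mrps26 and Mrps35 did. Mrps10, counterpart of a bacterial protein of the subunit's head, was the one that rose by more than 1.5-fold. It read 7.52, 7.45, 7.55 and 7.42 with IMQ, against 6.74, 6.72, 6.87 and 6.96 in mock cells. The groups stood well apart, with a change of 0.66 ± 0.07 (SE, n = 4 each) and an adjusted p of 9.17e-07. The change was 0.52 without the arrays high in Il6. Mrps18b, of the small subunit, was 0.37 ± 0.08 higher (SE, adjusted p = 0.00141), a call lost without those arrays (0.31, adjusted p = 0.0929).

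Mrps25, a protein found in mitochondrial ribosomes and not in bacterial ones, read 6.82, 6.66, 6.75 and 6.90 with IMQ and 7.13, 7.08, 7.22 and 7.15 in mock cells. The groups did not overlap, and the change was -0.36 ± 0.06 (SE, adjusted p = 0.000161). Mrps23, also without a bacterial counterpart, read 7.65, 7.66, 7.71 and 7.58 with IMQ, against 8.0, 7.92, 8.06 and 7.99 in mock cells, a change of -0.34 ± 0.05 (SE, adjusted p = 8.3e-05). In the fit without the arrays high in Il6 the changes of Mrps25 and Mrps23 were -0.36 and -0.34, both called. Mrps15, counterpart of bacterial S15, changed by -0.33 ± 0.04 (SE, adjusted p = 1.2e-05). Of the 10 small subunit proteins listed as gained in mitochondria, 3 were higher and 4 lower. Among the higher ones is Mrps18b, listed there although its paralogue Mrps18c is the closest to bacterial S18. Of the 15 with a bacterial counterpart, 1 was higher and 3 lower. The difference between these kinds of protein was not tested. Mrps36, below the dim level, read 4.09, 4.45, 4.37 and 3.95 with IMQ and 4.79, 4.52, 4.92 and 4.91 in mock cells (adjusted p = 0.00887). Its call was lost without the arrays high in Il6 (adjusted p = 0.109).

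**Figure D2:**
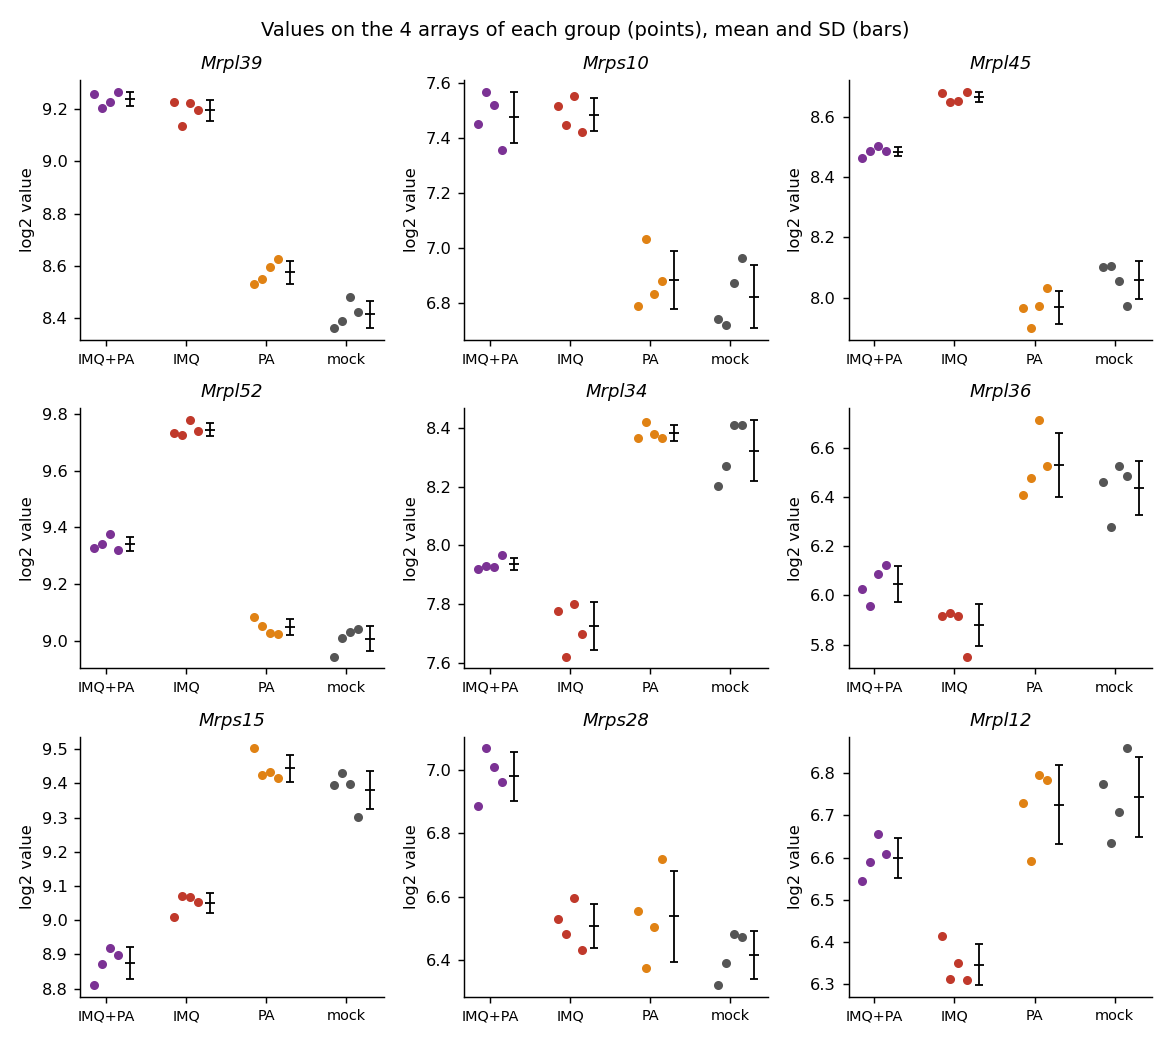
Log2 values of 9 mitochondrial ribosomal protein genes on the 4 arrays (points) of each group, with mean and SD (bars); groups run from IMQ with PA, IMQ and PA to mock, and each panel has its own axis. Mrpl39, Mrps10, Mrpl45 and Mrpl52 lie higher on IMQ arrays than on mock arrays, Mrpl34, Mrpl36, Mrps15 and Mrpl12 lower, and Mrps28 stands apart with IMQ and PA together.

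Where PA was present in both groups, IMQ again moved genes of the family both ways. Between IMQ with PA and PA alone, 16 were higher and 16 lower (45.1%), beside a background of 35.3% of all genes (16.8% higher and 18.5% lower) and 53.3% of those above the dim level. The changes ran between -0.57 for Mrps15 and 0.67 for Mrpl39, with a median of 0.004 for the family and 0.002 for all genes. For none of the 32 did the groups overlap, and among all genes called 91.8% had no overlap. Over the genes tested, 45.1% of the family and 32.4% of all genes were called without overlap. Without the arrays high in Il6, all 32 kept their direction and 25 passed the test, beside 29.7% of all genes.

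This comparison shares no array with that of IMQ alone against mock. Both called 25 of the 71 genes, all in the same direction. Of all 22180 genes 5685 were called in both, 5445 of them (24.5% of all genes) in the same direction. Of the 13539 genes above the dim level 5533 were called in both, 5311 of them in the same direction. The 25 genes are 75.8% of those of the family called with IMQ alone and 78.1% of those called with PA present. Among all genes above the dim level the shares were 75.3% and 73.6%. Over the 71 genes the changes had a Pearson correlation of 0.81 and a Spearman correlation of 0.784, and over the genes above the dim level of 0.869 and 0.773. These describe genes on shared arrays and are not replicates.

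**Figure D3:**
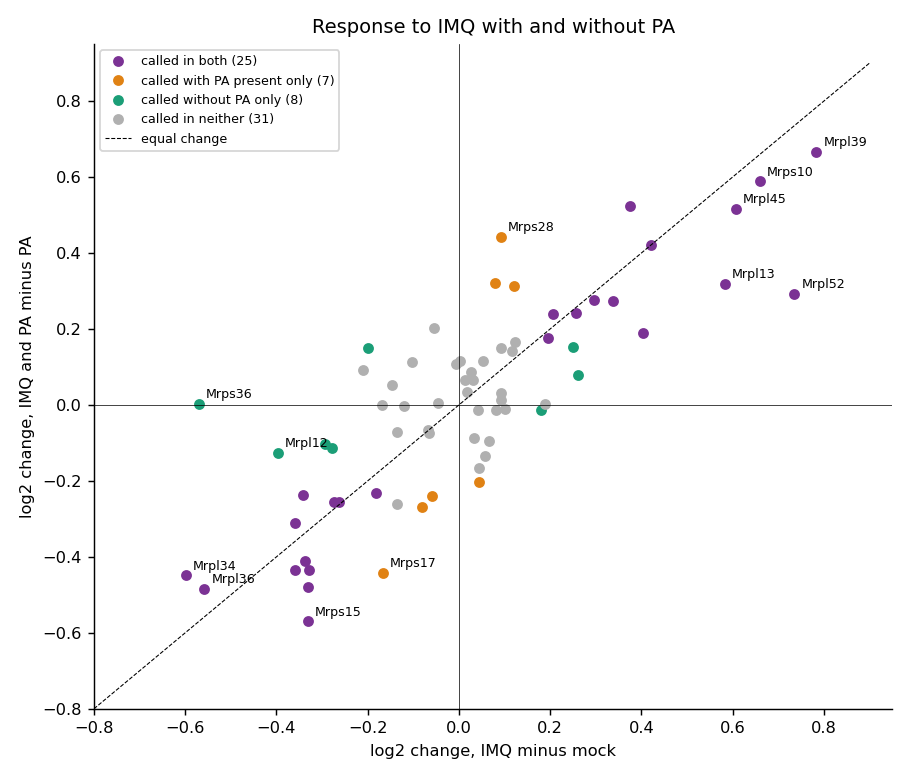
Log2 change of the 71 genes between IMQ with PA and PA alone (vertical) against the change between IMQ and mock (horizontal); the dashed line marks equal change. The 25 genes called in both comparisons lie in the lower left and upper right. Mrps36 lies farthest above the line and Mrpl52 farthest below it.

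Of the genes that rose, Mrpl39 read 9.26, 9.21, 9.23 and 9.27 with IMQ and PA, against 8.53, 8.55, 8.59 and 8.63 with PA. The change of 0.67 ± 0.04 (SE, n = 4 each, adjusted p = 2.31e-09) came with no overlap. Mrps10 read 7.45, 7.57, 7.52 and 7.36 with IMQ and PA and 6.79, 7.03, 6.83 and 6.88 with PA, a change of 0.59 ± 0.07 (SE, adjusted p = 3.07e-06). Mrps18b read 8.15, 7.95, 8.09 and 7.88 with IMQ and PA, against 7.36, 7.45, 7.47 and 7.69 with PA. For both genes every array with IMQ was above every array without it. Mrps18b was higher by 0.52 ± 0.08 (SE, adjusted p = 5.83e-05). Mrpl45 was higher by 0.52 ± 0.04 (SE, adjusted p = 5.51e-08), and Mrpl32 by 0.42 ± 0.14 (SE, adjusted p = 0.0247). The call of Mrpl32 was again lost without the arrays high in Il6 (0.43, adjusted p = 0.0659).

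Mrps15 fell most here. It read 8.81, 8.87, 8.92 and 8.90 with IMQ and PA, against 9.50, 9.42, 9.43 and 9.42 with PA. The gap was wide against the spread, with a change of -0.57 ± 0.04 (SE, n = 4 each, adjusted p = 1.92e-08). Mrpl36 read 6.03, 5.96, 6.09 and 6.12 with IMQ and PA and 6.41, 6.48, 6.71 and 6.53 with PA (-0.48 ± 0.07, SE, adjusted p = 4.85e-05). Mrpl42 read 6.01, 6.19, 6.10 and 6.02 with IMQ and PA, against 6.46, 6.63, 6.60 and 6.55 with PA (-0.48 ± 0.08, SE, adjusted p = 0.000207). Neither gene's groups overlapped. Mrpl34 changed by -0.45 ± 0.05 (SE, adjusted p = 4.88e-06), Mrps17 by -0.44 ± 0.07 (SE, adjusted p = 0.000108) and Mrpl49 by -0.43 ± 0.05 (SE, adjusted p = 2.06e-06), and without the arrays high in Il6 these 6 calls held. Mrpl2, Mrpl23, Mrpl50 and Mrps17 were called lower here and not with IMQ alone, and Mrpl22, Mrpl58 and Mrps28 higher here and not with IMQ alone. Of these, Mrpl50 lost its call without the arrays high in Il6. Mrpl12, Mrpl21, Mrpl55, Mrps18a, Mrps21, Mrps30, Mrps35 and Mrps36 were called with IMQ alone and not here. A call in 1 comparison and not in the other does not show that the changes differ.

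With PA alone, 0 of the 71 genes were called by limma, beside 1.49% of all genes (1.05% higher and 0.442% lower) and 2.12% of those above the dim level. At an unadjusted p under 0.05 there were 8 of the 71, where 14.5% of all genes passed. The changes ran between -0.29 for Mrps36 and 0.21 for Mrpl2, 57 of the 71 (80.3%) were above 0, against 54.5% of all genes and 61.4% of those above the dim level. The median was 0.05, against 0.01 for all genes. It was 0.011 after repeated quantile normalisation, where that of all genes was 0.0084. With equal array medians it was 0.07, where that of all genes was 0.032. Without the arrays high in Il6 it was 0.022. Of the 70 genes above the dim level, the 95% intervals reached no lower than -0.38 (Mrpl1) and no higher than 0.39 (Mrpl14). The smallest adjusted p, 0.0838, was that of Mrpl39. It read 8.53, 8.55, 8.59 and 8.63 with PA, against 8.36, 8.39, 8.48 and 8.42 in mock cells, without overlap, a difference of 0.16 ± 0.04 (SE, n = 4 each). Without the arrays high in Il6 the count stayed at 0 and the background fell to 0.0676% of all genes.

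Between IMQ with PA and IMQ alone 11 of the 71 genes were higher and 5 lower (22.5%), beside a background of 21.1% of all genes (11.6% higher and 9.44% lower) and 32.2% of those above the dim level. The changes ran between -0.40 for Mrpl52 and 0.47 for Mrps28, none reached 1.5-fold, and the median was 0.02, against -0.02 for all genes. The sign of the family median depended on the scaling: it was -0.02 after repeated quantile normalisation and 0.05 with equal array medians. The split of the calls moved as well, to 8 higher and 9 lower in the first and 11 and 3 in the second. Groups were separate for 14 of the 16 (87.5%), against 89.5% of all genes called, which came to 19.7% of the family and 18.9% of all genes tested. Mrpl57 and Mrps12 were the exceptions. This comparison uses no mock or PA array. The 4 groups share 1 estimate of the spread, however, and without the arrays high in Il6 Mrps12 (adjusted p = 0.0517), Mrps23 (adjusted p = 0.0674) and Mrps27 (adjusted p = 0.0519) were no longer called.

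Mrps28, the mitochondrial relative of bacterial S1, rose most. It read 6.89, 7.07, 7.01 and 6.96 with IMQ and PA, against 6.53, 6.48, 6.59 and 6.43 with IMQ. The arrays with both agents were above all others, and the change was 0.47 ± 0.07 (SE, n = 4 each, adjusted p = 9.88e-05). Mrpl11 read 7.07, 6.97, 6.83 and 6.75 with IMQ and PA and 6.55, 6.35, 6.71 and 6.45 with IMQ, a change of 0.39 ± 0.08 (SE, adjusted p = 0.00209). Mrpl58, a peptidyl-tRNA hydrolase that frees stalled ribosomes, read 8.70, 8.70, 8.74 and 8.58 with IMQ and PA, against 8.46, 8.31, 8.32 and 8.37 with IMQ. Neither gene's groups overlapped, and Mrpl58 was 0.31 ± 0.05 higher (SE, adjusted p = 0.000551). Mrpl22, whose bacterial counterpart lines the exit tunnel, was 0.29 ± 0.06 higher (SE, adjusted p = 0.00203). Mrps18a was higher by 0.30 ± 0.07 (SE, adjusted p = 0.00824) and Mrpl51 by 0.27 ± 0.07 (SE, adjusted p = 0.0105).

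Mrpl12 read 6.54, 6.59, 6.66 and 6.61 with IMQ and PA, against 6.41, 6.31, 6.35 and 6.31 with IMQ. It was higher by 0.25 ± 0.06 (SE, n = 4 each, adjusted p = 0.00451), without overlap. On the second probe set of Mrpl12 (mean 5.05) the same change was -0.15. With the mean of both probe sets the change was 0.05 (adjusted p = 0.615), so this call rests on the brighter probe set. Mrpl34 read 7.92, 7.93, 7.93 and 7.97 with IMQ and PA and 7.78, 7.62, 7.80 and 7.70 with IMQ, which was 0.21 ± 0.05 higher (SE, adjusted p = 0.0108).

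The largest fall was that of Mrpl52. It read 9.33, 9.34, 9.38 and 9.32 with IMQ and PA, against 9.73, 9.73, 9.78 and 9.74 with IMQ. The groups lay far apart, with a change of -0.40 ± 0.04 (SE, n = 4 each, adjusted p = 1.15e-06). Mrpl13 read 7.38, 7.53, 7.48 and 7.37 with IMQ and PA and 7.70, 7.63, 7.74 and 7.73 with IMQ (-0.26 ± 0.06, SE, adjusted p = 0.00373). Mrpl45 read 8.46, 8.49, 8.50 and 8.49 with IMQ and PA, against 8.68, 8.65, 8.65 and 8.68 with IMQ (-0.18 ± 0.04, SE, adjusted p = 0.00596). Mrps15 read 8.81, 8.87, 8.92 and 8.90 with IMQ and PA, against 9.01, 9.07, 9.07 and 9.05 with IMQ (-0.17 ± 0.04, SE, adjusted p = 0.00802). All 3 were without overlap. The last was not called with equal array medians (adjusted p = 0.0585).

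The changes with PA under IMQ and the changes with IMQ alone are both taken from the IMQ arrays, so they are only set side by side. Mrpl52, Mrpl45 and Mrpl13, which were higher with IMQ alone by 0.74, 0.61 and 0.58, were lower with PA added to IMQ. Mrpl34, Mrpl12 and Mrps23, with changes of -0.60, -0.40 and -0.34 with IMQ alone, were higher with PA added to it. This second call was lost in 10 of 24 alternative settings for Mrps23, and with the mean of its probe sets for Mrpl12. Mrps18a, lower with IMQ alone in a call lost in 17 of 24 settings, was also higher with PA added. Mrps15 was lower in both comparisons. Mrps28, Mrpl58 and Mrpl22, with changes of 0.09, 0.08 and 0.12 that were not called with IMQ alone, were higher with PA added to it. Mrpl39 and Mrps10 changed by 0.04 and -0.01 when PA was added, with 95% intervals of -0.05 to 0.14 and -0.16 to 0.14.

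Whether PA acted differently with and without IMQ was tested as the difference of both PA changes. It was called for 6 of the 71 genes, 3 higher and 3 lower (8.45%), beside a background of 13.6% of all genes (6.58% higher and 7.01% lower) and 20.6% of those above the dim level. The difference was -0.44 ± 0.05 for Mrpl52 (SE, adjusted p = 3.75e-05), which was -0.40 with PA under IMQ and 0.04 with PA alone. It was 0.35 ± 0.10 for Mrps28 (SE, adjusted p = 0.0257) and 0.35 ± 0.10 for Mrps18a (SE, adjusted p = 0.0383). For Mrpl12 it was 0.27 ± 0.08 (SE, adjusted p = 0.0376; 0.17 and adjusted p = 0.215 with the mean of its probe sets), for Mrpl13 -0.26 ± 0.08 (SE, adjusted p = 0.0452) and for Mrps15 -0.24 ± 0.06 (SE, adjusted p = 0.0162). Mrpl52 was the only one called in every setting tried. Of 23 settings Mrps15 lost its call in 2, Mrps28 in 9, Mrpl12 in 12, Mrps18a in 14 and Mrpl13 in 15. Without the arrays high in Il6 Mrpl12, Mrpl52 and Mrps18a stayed called, beside 5.41% of all genes. The genes called higher numbered 0 when any 1 of 6 arrays was left out (mock 4, PA 2, IMQ 2, IMQ 4, and IMQ with PA 2 and 3) and 1 without mock 1 or PA 1.

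**Figure D4:**
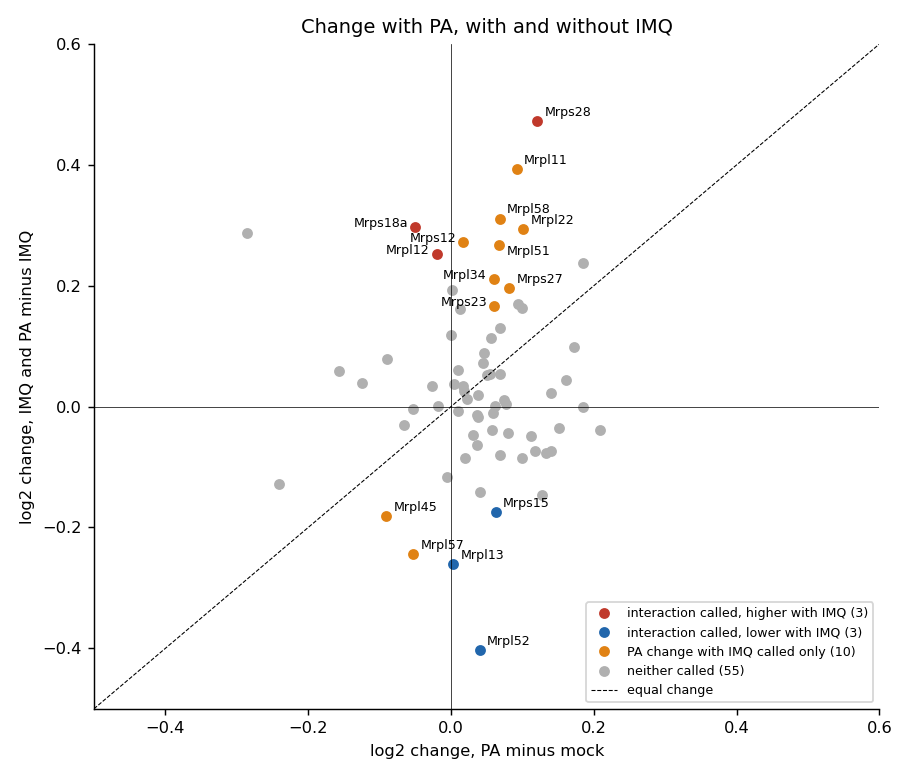
Log2 change of the 71 genes between IMQ with PA and IMQ (vertical) against the change between PA and mock (horizontal); the dashed line marks equal change. Mrpl52 (-0.40 and 0.04) lies farthest below the line and Mrps28 (0.47 and 0.12) high above it, and the cloud is narrow along the horizontal axis.

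Of the 71 genes, 26 were called in none of the 4 comparisons of pairs of groups. They were Mrpl1, Mrpl3, Mrpl9, Mrpl10, Mrpl14, Mrpl15, Mrpl16, Mrpl19, Mrpl20, Mrpl27, Mrpl37, Mrpl40, Mrpl46, Mrpl47, Mrpl48 and Mrpl54 of the large subunit and Mrps2, Mrps5, Mrps7, Mrps11, Mrps14, Mrps16, Mrps18c, Mrps24, Mrps33 and Mrps34 of the small one. Mrps5 and Mrps7 are counterparts of bacterial proteins. Mrps7 read 8.02, 7.97, 8.02 and 7.82 with IMQ and PA, 7.86, 7.76, 7.88 and 7.81 with IMQ, 7.95, 7.82, 7.86 and 7.84 with PA, and 7.86, 7.62, 7.90 and 7.82 in mock cells. All 4 groups overlapped. Mrps12, whose bacterial counterpart belongs to the decoding centre, was called only with PA added to IMQ (0.27 ± 0.08, SE, adjusted p = 0.0272), with overlapping arrays, and it lost that call in 7 of 24 alternative settings. Mrps27, an RNA-binding protein of the small subunit, was higher there by 0.20 ± 0.05 (SE, adjusted p = 0.0142).

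The Mrps18 genes encode paralogues that sit at different places in the ribosome, and their changes were not tested against each other. With IMQ alone Mrps18b was 0.37 higher, Mrps18a changed by -0.20 with overlapping arrays (adjusted p = 0.0492, lost in most settings), and Mrps18c, the closest to bacterial S18, changed by 0.10 and was not called (adjusted p = 0.343). Their probe sets could not be compared in level. Besides Mrpl12, 8 genes had more than 1 probe set (Mrpl10, Mrpl36, Mrpl47, Mrps5, Mrps16, Mrps17, Mrps18b and Mrps18c). For Mrps18b both probe sets rose with IMQ alone, by 0.37 and 0.49. For Mrps17 the brighter one changed by -0.17 and the other by -0.34, and the second alone passed limma with p adjusted over all probe sets (adjusted p = 0.0903 for the brighter and adjusted p = 0.0094 for the other). Between IMQ with PA and PA its dimmer probe set changed by -0.20 and was not called (adjusted p = 0.124). The dimmer probe set of Mrpl36 changed by -0.23 with IMQ alone (adjusted p = 0.0679). It changed by -0.13 between IMQ with PA and PA (adjusted p = 0.3), and neither change was called. For Mrpl10, Mrpl47, Mrps5 and Mrps18c the pair differed in the sign of the IMQ change, and no probe set of these genes was called in it.

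Other genes of mitochondrial translation were described from lists made by function, chosen with earlier results of these data known. With PA alone, 0 genes of any of these lists were called by limma. Counts with IMQ alone are to be read beside the 34.8% of all genes and 52.1% of genes above the dim level that were called. That share of all genes was 23.6% without the arrays high in Il6. Proteins of the ribosome under other symbols were 2 of 3 higher with IMQ alone and none lower. They were Dap3, a GTP-binding protein of the small subunit (0.21 ± 0.06, SE, adjusted p = 0.0113), and Gadd45gip1 of the large subunit (0.24 ± 0.06, SE, adjusted p = 0.00708), and both calls were lost without the arrays high in Il6 (adjusted p = 0.195 and adjusted p = 0.445). Of 25 assembly and rRNA modification factors 9 were higher and 4 lower (52%), with a median of 0.04, and without the arrays high in Il6 2 were higher and 3 lower. Tfb1m, an rRNA methyltransferase, was 0.59 ± 0.08 higher (SE, adjusted p = 2.38e-05), and Noa1, a GTPase of small subunit assembly, changed by -0.71 ± 0.05 (SE, adjusted p = 1.47e-08), and both stayed called in that fit.

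Mettl17, which is needed for assembly of the small subunit, read 7.22, 7.32, 7.21 and 7.11 with IMQ and PA, 6.56, 6.67, 6.69 and 6.48 with IMQ, 7.51, 7.46, 7.45 and 7.42 with PA, and 7.24, 7.28, 7.42 and 7.15 in mock cells. The IMQ arrays lay below those of every other group. Its change was -0.67 ± 0.06 between IMQ and mock (SE, adjusted p = 3.49e-07) and 0.61 ± 0.06 between IMQ with PA and IMQ (SE, adjusted p = 3.26e-06). The test of the difference between both PA changes gave 0.43 ± 0.09 (SE, adjusted p = 0.00465). When the arrays high in Il6 were left out, the change between IMQ and mock was -0.55 and still called, and the difference between the PA changes was 0.28 and not called (adjusted p = 0.296).

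Of 16 aminoacyl-tRNA synthetases of mitochondria, 1 was higher with IMQ alone and 6 lower (43.8%), the same counts as without the arrays high in Il6, with a median of -0.12. Ears2, for glutamate, was 0.45 ± 0.07 higher (SE, adjusted p = 4.48e-05), and Mars2, for methionine, changed by -0.55 ± 0.11 (SE, adjusted p = 0.00093). Of 14 genes of translation factors and mRNA handling 1 was higher and 3 lower (28.6%; 0 and 3 without the arrays high in Il6), among them the elongation factor Tufm (-0.27) and Lrpprc, which stabilises mitochondrial mRNAs (-0.38). Of 11 genes of mitochondrial transcription and replication, none was higher and 3 lower, all lost without the arrays high in Il6: Tfb2m, the transcription initiation factor (-0.43), Ssbp1, the DNA-binding protein of single strands (-0.38), and the nuclease Mgme1 (-0.30).

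The genes that this ribosome translates are those of mitochondrial DNA, of which 10 were measured on probe sets of their own. With IMQ alone 8 were lower and none higher (7 lower without the arrays high in Il6), with a median change of -0.29. ND3, a subunit of respiratory complex I, read 11.85, 11.81, 11.78 and 11.80 with IMQ, against 12.47, 12.45, 12.47 and 12.55 in mock cells. The groups were well separated, and the change was -0.68 ± 0.04 (SE, n = 4 each, adjusted p = 1.44e-09). ND4L (-0.46) and ND2 (-0.40) of the same complex followed. Between IMQ with PA and PA alone 5 of the 10 were lower and none higher. The background there was 35.3% of all genes and 53.3% of those above the dim level. ND3 was the one gene called with PA added to IMQ (0.23, adjusted p = 0.000786), beside 21.1% and 32.2%. With a variance trend the mitochondrial counts were 8 lower and 2 higher, and with dim genes left out the first was again 8. Most mitochondrial mRNAs carry a short poly(A) tail and lie on shared precursors, so these 10 genes are not independent of each other.

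Of 9 regulators known for mitochondrial biogenesis, 3 were higher with IMQ alone and 2 lower. The higher ones were Gabpb1 and Gabpa, subunits of the ETS factor GABP (0.65 and 0.17), and Nrf1 (0.19). Of these 3 Gabpb1 alone stayed called without the arrays high in Il6, as did Myc and Ppargc1b below against mock. Myc, a transcription factor of growth, read 6.67, 6.76, 6.81 and 6.75 with IMQ and PA, 5.91, 5.64, 5.98 and 5.82 with IMQ, 7.87, 7.88, 8.0 and 7.89 with PA, and 7.69, 7.64, 7.72 and 7.64 in mock cells. No group overlapped another. The change of Myc was -1.83 ± 0.06 with IMQ alone (SE, adjusted p = 1.88e-12) and 0.91 ± 0.06 with PA added to IMQ (SE, adjusted p = 3.29e-08). Ppargc1b, a coactivator of respiratory genes, changed by -1.15 and 0.66 in the same comparisons.

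**Figure D5:**
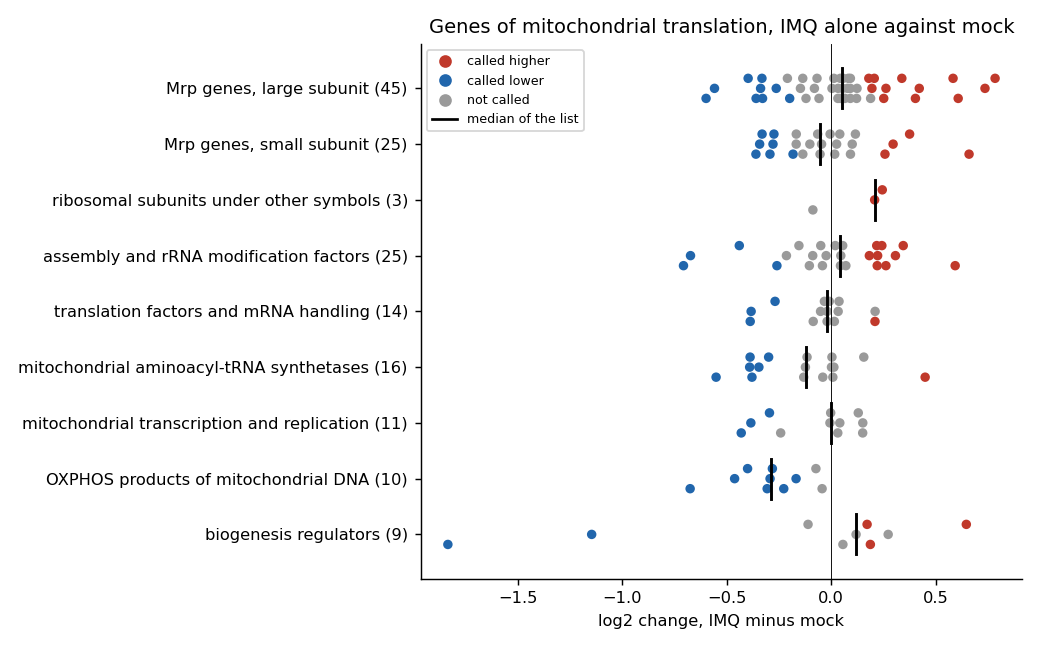
Log2 change with IMQ alone against mock for each gene (points) of the mitochondrial ribosomal protein genes by subunit and of 7 other lists, with the median of each list (bars) and the number of genes in brackets. Points of the ribosomal proteins spread to both sides of 0, and the genes of mitochondrial DNA lie below 0 with a median of -0.29.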

How the data were processed

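The study hybridised biotin-labelled cDNA from 200 ng of total RNA to 16 whole-transcript Affymetrix mouse arrays, 4 per group. The authors deposited log2 values of 41345 probe sets. Per the submitters' processing notes these were made with RMA in affy, with no versions given. RMA corrects background, makes the arrays' distributions equal and fits each probe set, so shifts common to all genes are removed and a fold change of weak genes is compressed. No per-sample column was left unmapped. Here, genes were named from the platform annotation, 23521 probe sets with 1 symbol were kept, and the probe set with the highest mean stood for each of 22180 genes. The dim level, 4.93, is the 95th percentile of the means of 1443 sensory receptor genes. A gene lies under it where the highest of its 4 group means does, as for 8641 genes. A gene can therefore count as above it through 1 group alone. No gene was filtered out.

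All 16 arrays were fitted with limma 3.58.1 (R 4.3.3) as 4 group means with empirical Bayes moderation (12 residual and 2.96 prior degrees of freedom). Adjusted p-values are Benjamini-Hochberg over all 22180 genes, two-sided. The 5 comparisons were PA against mock, IMQ against mock, IMQ with PA against IMQ, IMQ with PA against PA, and the difference between both PA changes. The fit was tested on simulated data. The SE of a change comes from the moderated spread that the limma fit shares over all 4 groups, and n counts the arrays of each group compared. An SD is that of the 4 arrays of a group. The family, the lists of other genes and the tests were chosen with earlier results of these data known. Named genes are the called ones of largest change in each comparison whose groups do not overlap, a fixed set of members by role, and those with several or shared probe sets. Others, such as Mrpl17, were named after their values were seen. Alternatives covered normalisation, moderation, dim genes, probe set choice, the replicate number as a block, arrays left out one at a time, and the arrays high in Il6. The labels do not say whether the replicate numbers pair the arrays, and the main fit does not pair them.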

Additional observations from a re-analysis of the deposited data

Results flagged for a closer look

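The following values stood far from the other 3 arrays of their group. Of 136 groups of 4 arrays checked over 34 genes 8 were picked out, and chance picks out about 1 in 20 groups. Mrpl13 read 6.95 on mock replicate 2, against 7.16 to 7.19. Mrpl36 read 5.75 on IMQ replicate 4, against 5.92 to 5.93, and Mrpl22 read 6.35 on the same array, against 6.28 to 6.29. Mrps18c read 6.15 on replicate 2 of IMQ with PA, against 6.36 to 6.39. Mrps5 read 6.86 on mock replicate 4, against 7.09 to 7.11. Mrpl47 read 5.59 on PA replicate 4, against 5.71 on the others, and 5.61 on replicate 1 of IMQ with PA, against 5.84 to 5.88. Il6 read 4.32 on mock replicate 4, against 7.57 to 7.90.

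For 6 of the 71 genes (8.45%) the PA change was called different with and without IMQ, by a test of the difference itself. The background was 13.6% of all genes and 20.6% of those above the dim level. Of the 6, Mrpl52 alone was called in every setting tried. The difference was -0.44 for Mrpl52, 0.35 for Mrps28, 0.35 for Mrps18a, 0.27 for Mrpl12, -0.26 for Mrpl13 and -0.24 for Mrps15. The cause of these values was not tested.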

How the results depend on the processing

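No call of a gene of the family reversed its direction in any setting. The calls kept in every setting numbered 17 of 33 for IMQ against mock, 10 of 16 for IMQ with PA against IMQ, 24 of 32 for IMQ with PA against PA, and 1 of 6 (Mrpl52) for the difference between both PA changes. Without the mock and PA arrays high in Il6, IMQ against mock gave 7 higher and 11 lower, and the difference between the PA changes 1 lower; fewer arrays remain in that fit. For PA against mock 1 gene was higher with a variance trend and with dim genes left out (Mrpl39), and 1 lower with repeated quantile normalisation and with dim genes left out (Mrpl1). IMQ with PA against IMQ had 8 higher and 9 lower with repeated quantile normalisation, and 11 and 3 with equal array medians. In the main fit all genes split there into 2583 higher and 2093 lower. The split was 2269 and 2502 with quantile normalisation, and 2643 and 1559 with equal medians. For the difference between the PA changes, equal medians gave 1 higher and 1 lower, and repeated quantile normalisation and leaving out dim genes gave 5 lower each. With PA against mock, all genes split into 233 higher and 98 lower, 196 and 116 with quantile normalisation, and 195 and 59 with equal medians. No scaling moved the median change of all genes by 0.1. The cause of these moves was not tested.

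Leaving out 1 array at a time gave 14 to 17 higher and 15 to 18 lower for IMQ against mock, 9 to 12 and 4 to 5 for IMQ with PA against IMQ, 14 to 19 and 14 to 16 for IMQ with PA against PA, 0 to 4 and 2 to 4 for the difference between the PA changes, and 0 in each direction for PA against mock. With the replicate number as a block, IMQ against mock gave 16 higher and 16 lower, IMQ with PA against IMQ 11 and 5, IMQ with PA against PA 16 and 15, and the difference 2 and 2. Deviations of arrays with the same number had a median correlation of 0.00506 (range -0.267 to 0.27, 5 of 24 pairs over 0.1). For arrays with different numbers it was -0.00492 (range -0.268 to 0.246, 8 of 72 pairs over 0.1). Between arrays numbered 3 the correlations ran from 0.0528 to 0.27. Mock replicate 4 correlated at 0.246 and 0.224 with PA replicates 1 and 2, which were also low in Il6, and at -0.267 with PA replicate 4. The numbers are not taken to pair the arrays, but these correlations cannot show that no arrays were paired.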
